A study of Mus musculus with 14 samples.

Results

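The first of the 2 slides in this series held 8 mouse blood arrays, 4 from SS mice and 4 from SI mice, out of 14 arrays in all. They were chosen by the slide barcode in the scanner output and compared on that slide alone. SS mice had met a hostile social environment in the third postnatal week, and SI mice had been socially isolated at that age. All 8 mice are labelled male. All of them, like those of the second slide, had received cocaine at 5 mg/kg, a dose under threshold, in place conditioning, had gone through extinction and withdrawal, and were bled 24 hours later. Strain and age at bleeding are not given in the sources used here, and the slide holds no mouse without stress or without cocaine, so each value below is a difference between 2 stressed, cocaine-treated groups. SS mice carry the numbers 1, 2, 3 and 01b and SI mice the numbers 4, 5, 6 and 7, and lists of values keep this order. Each array carries its own mouse number, and p-values measure the spread between these arrays.

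Blood cells reach the array in proportions that vary from draw to draw. Per the labels, submandibular blood was collected with EDTA and depleted of red cells by lysis, and the material is labelled PBMC although no gradient or sort is named. Platelets, cell fragments shed by megakaryocytes that plug damaged vessels, carry RNA of their own, as do young red cells. Neutrophils, the first phagocytes at sites of infection, make their granule proteins as precursors in the marrow and stop before they enter the blood. On these arrays 17 of 17 measured genes of mature neutrophils, 12 of 12 platelet adhesion receptor genes and 13 of 15 measured genes of globins and heme synthesis were well above background on all 8 arrays, as were 18 of 18 B cell genes and 14 of 20 T cell genes. Measured means that the probe was well above background on 4 or more of these arrays. Of all such probes 72.2% were so on all 8, and the T cell count lies near that share. In such mixed samples, fewer cells of a type and less of its RNA per cell cannot be told apart.

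Before the comparison, the arrays themselves were examined, because several went against their labels or stood apart. The Y-linked genes Ddx3y and Eif2s3y were well above background on 0 of the 8 arrays labelled male and on 6 of the 6 arrays of the second slide, which are labelled female. Xist, the RNA of the inactive X chromosome, was well above background on 5 of the 8 arrays by its brighter probe and on 0 of 6 on the second slide. The sex label therefore went against the data on this slide, and "labelled male" is used only as a label. No gene was available to check the SS and SI labels. On the slide, SI mice lie in columns 1 and 2 and SS mice in columns 3 and 4, so column and stress group cannot be told apart.

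Array brightness, the 75th percentile of the log2 signal before scaling, ran from 8.05 on the array of SI mouse 4 to 9.90 on that of SI mouse 7. The SS arrays read 8.91, 8.68, 9.39 and 8.56, and those of SI mice 5 and 6 read 9.43 and 9.65. The SS arrays averaged 8.88 ± 0.36 (SD, n = 4) and the SI arrays 9.26 ± 0.83 (n = 4; exact permutation p = 0.4, two-sided, and 0.857 after Benjamini-Hochberg adjustment over 5 array measures). The smallest p that 4 against 4 arrays allow is 0.0286. Without SI mouse 4 the difference was -0.78 (exact permutation p = 0.0571, where 4 against 3 arrays allow 0.0286). The first principal component held 62.6% of the variance and put SI mouse 4 (112.8) beside SS mice 2 (83.0), 01b (71.9) and 1 (51.3), and SS mouse 3 (-49.6) beside SI mice 5 (-43.6), 6 (-100.5) and 7 (-125.3). Dim arrays lay at one end and bright arrays at the other. SI mouse 4 correlated with SI mouse 7 at 0.837 and with SS mouse 01b at 0.962 over the tested probes, and SS mouse 3 correlated with SI mouse 5 at 0.971. The array of mouse 01b correlated at 0.975 with SS mouse 1 and at 0.982 with SS mouse 2, against 0.976 between those mice. The labels do not say what 01b stands for, and it was counted as a mouse of its own.

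**Figure D1:**
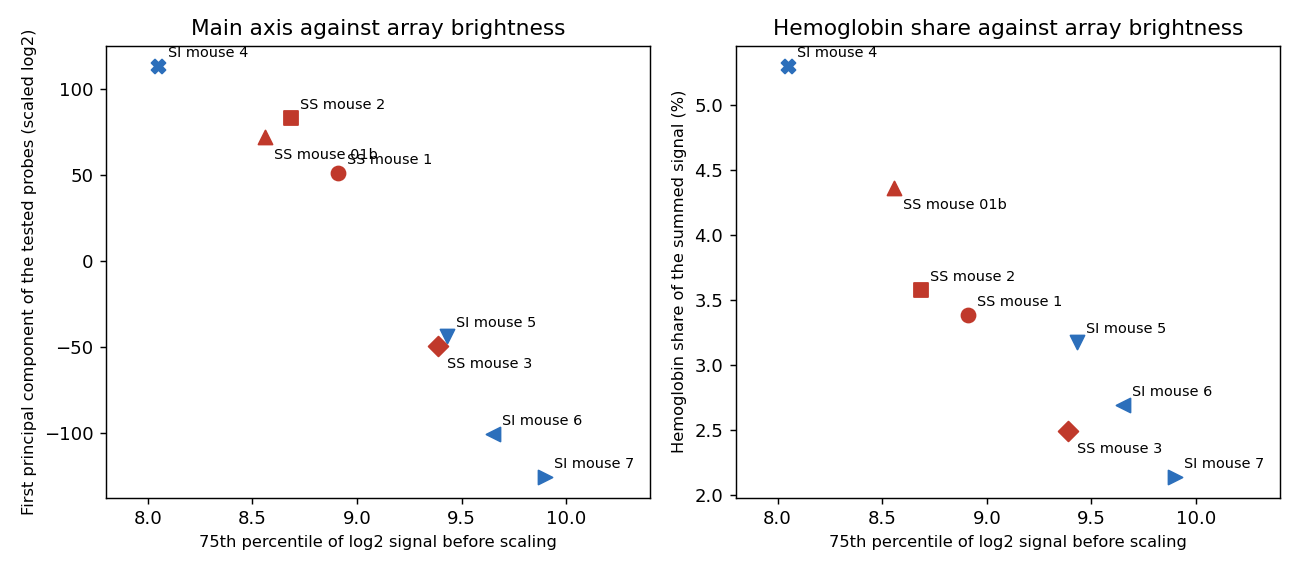
Each point is 1 of the 8 arrays (red SS, blue SI), placed by its brightness before scaling (75th percentile of log2 signal) against the first principal component of the tested probes (left) and the hemoglobin share of the summed signal in percent (right). SI mouse 4 is the dimmest array at 8.05 with the highest hemoglobin share, 5.30%, and SS mouse 3 lies with the SI arrays on the first component.

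The comparison asks which blood transcripts differ between the 2 kinds of early social stress during cocaine abstinence. Over all 8 arrays, none of the 24797 tested probes differed between SS and SI mice (limma, lowest Benjamini-Hochberg adjusted p = 0.219); at an unadjusted p under 0.05 there were 4654, which is 18.8%. The groups did not overlap for 2205 probes higher in SS mice (8.89%) and 284 lower (1.15%). With array brightness as a covariate 1 probe passed (0.00403%), while the brightness term itself passed for 13728 probes (55.4%). The same count with array weights was 15477 probes, 9406 higher and 6071 lower in SS mice, under weights of 0.14 for SI mouse 4 and 0.37 for SS mouse 3 against 3.51 for SS mouse 01b. The weights were estimated on the same values and groups, so arrays that lay apart from their own group counted least. That count is therefore a description. Without SI mouse 4, 5595 probes passed, 4185 of them higher in SS mice (16.9%) and 1410 lower (5.69%). Among 11672 genes with a symbol, each read from its brightest tested probe, 1386 rose (11.9%) and 1090 fell (9.34%) without SI mouse 4. The adjusted p of these calls lay in a narrow band under the threshold: the lowest was 0.0425, 4122 probes were under 0.045 and 0 under 0.04. No probe passed when SS mouse 1, 2 or 01b or SI mouse 6 or 7 was left out as well, with the row of the array on the slide as a block, or with brightness as a covariate; 6293 passed without SI mouse 5 and 14927 without SS mouse 3. Every gene said below to have risen or fallen passed the fit without SI mouse 4, and none of them passed with all 8 arrays.

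Scaling set the balance of rises and falls without SI mouse 4. The 75th percentile of all probes gave 3128 rises and 4201 falls (42.7% rises, against 74.8% with the scaling used here), quantile normalization 2217 and 2180, cyclic loess 2728 and 3928, and normexp with quantile normalization 2683 and 4089. The median of the probes well above background on all arrays gave 4430 and 2062. The median log2 difference of all probes was 0.27 without SI mouse 4 and 0.00 under the percentile of all probes. Over genes it was -0.14 with all arrays and -0.22 without SI mouse 4, and the medians of gene lists below are given relative to those values. Of 63 genes described below that passed without SI mouse 4, 0 changed direction under any of these scalings. They were picked because they passed in the same data, so this count is a description and no check of their direction.

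The lowest p over all 8 arrays belonged to Ngp, a granule protein of neutrophil precursors. Its probe read -1.29, -0.38, -0.40 and -0.47 on the SS arrays and -2.68, -2.69, -2.25 and -2.45 on the SI arrays (log2, scaled). The groups did not overlap, and SI mouse 4 lay within the other SI mice. The difference was 1.88 ± 0.28 (SE, adjusted p = 0.219), a 3.69-fold difference, and it was 1.83 ± 0.28 without SI mouse 4 (adjusted p = 0.0425) and 1.93 with brightness as a covariate. In the deposited value table it was 3.91 with 8 arrays. Camp, the precursor of the antimicrobial peptide cathelicidin, read 1.61, 2.43, 2.59 and 1.90 in SS mice against 0.48, 0.07, 0.99 and 0.99 in SI mice, again without overlap, by 1.50 ± 0.33 (0.89 in the deposited value table). The iron-binding lactoferrin gene Ltf read -0.37, 0.92, 1.14 and 0.27 against -1.67, -1.21, -1.03 and -0.04, with SS mouse 1 under SI mouse 7 (1.47 ± 0.44; 1.25 ± 0.43 and adjusted p = 0.0593 without SI mouse 4). Of 14 measured genes of neutrophil granules, Ngp and Camp were the 2 that lay higher in SS mice without overlap. They were also the 2 that rose without SI mouse 4, and none lay lower or fell. Over all genes, 8.81% lay higher and 1.79% lower without overlap, 11.9% rose and 9.34% fell, so the 2 rises lie near that share. With 8 arrays 10 of the 14 averaged higher in SS mice. Chil3 was among the others, at 1.52, 3.07, 0.45 and 3.17 against 1.75, 4.03, 3.90 and 2.97 (log2, scaled over 14 arrays).

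Ngp, Camp and Ltf lie within a short stretch of mouse chromosome 9 and are read in neutrophil precursors under C/EBP factors, so their start regions are shown. The windows run from upstream of the RefSeq start to just past it in GRCm38.p6, and capitals mark matches on either strand to TTNNGCAA, a C/EBP-type motif. Such a match was present in 10.8% of 32851 windows of the same length.
Ngp, chr9:110419558-110419857, plus strand: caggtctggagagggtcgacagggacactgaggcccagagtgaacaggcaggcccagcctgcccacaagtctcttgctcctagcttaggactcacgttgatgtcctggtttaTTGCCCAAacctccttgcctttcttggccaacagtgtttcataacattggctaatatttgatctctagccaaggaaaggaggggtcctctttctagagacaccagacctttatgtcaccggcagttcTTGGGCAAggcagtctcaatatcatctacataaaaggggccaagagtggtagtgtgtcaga
Camp, chr9:109849407-109849706, minus strand: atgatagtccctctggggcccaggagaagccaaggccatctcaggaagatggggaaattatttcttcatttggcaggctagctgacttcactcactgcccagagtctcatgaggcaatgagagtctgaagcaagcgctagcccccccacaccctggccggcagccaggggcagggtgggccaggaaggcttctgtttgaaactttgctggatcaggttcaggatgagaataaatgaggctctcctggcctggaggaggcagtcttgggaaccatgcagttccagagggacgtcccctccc
Ltf, chr9:111019042-111019341, plus strand: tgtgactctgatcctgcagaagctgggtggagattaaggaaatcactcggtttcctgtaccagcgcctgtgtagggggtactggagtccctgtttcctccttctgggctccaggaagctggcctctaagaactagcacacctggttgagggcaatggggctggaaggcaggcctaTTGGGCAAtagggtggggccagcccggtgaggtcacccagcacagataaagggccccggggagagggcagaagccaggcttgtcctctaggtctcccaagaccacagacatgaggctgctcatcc
The Ngp window held 2 matches, the Ltf window 1 and the Camp window 0.

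These granule genes ran the other way on the second slide, and their differences between the slides passed the test. On the scale of all 14 arrays, Ngp differed by 1.89 on the first slide and by -4.85 on the second, where SI mice 27 and 28 read 1.09 and 4.17 and the 4 SS mice between -2.78 and -1.73. The difference between the slides was 6.74 ± 0.82 (SE, adjusted p = 0.0163). It was 6.14 ± 0.81 for Camp (adjusted p = 0.0178), 6.35 ± 0.94 for Ltf (0.0374), 4.59 ± 0.58 for Lcn2, a siderophore-binding granule protein (0.0163), and 4.54 ± 0.69 for Wfdc21, a small secreted protein (0.0421). In all, 6 of 11672 genes passed (0.0514%), these 5 among them, and 10 of 24797 probes passed in all (0.0403%). Ngp no longer passed without SS mouse 01b (adjusted p = 0.0503) or without SS mouse 23 of the second slide (0.0541). Lcn2 was lost without those or SS mouse 3, and Camp without those, SS mouse 2 or 3 or SI mouse 5. Ltf was lost in 10 and Wfdc21 in 11 of the 14 fits that leave out 1 array, and Wfdc21 also with the 75th percentile of all probes, with quantile normalization and with no filter. Without SI mouse 4, 1065 probes (4.29%) and 377 genes passed (3.23%), the same 5 among them. The slides differ in sex label and rest on 2 SI mice on the second, so slide, label and these 2 mice cannot be told apart.

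**Figure D2:**
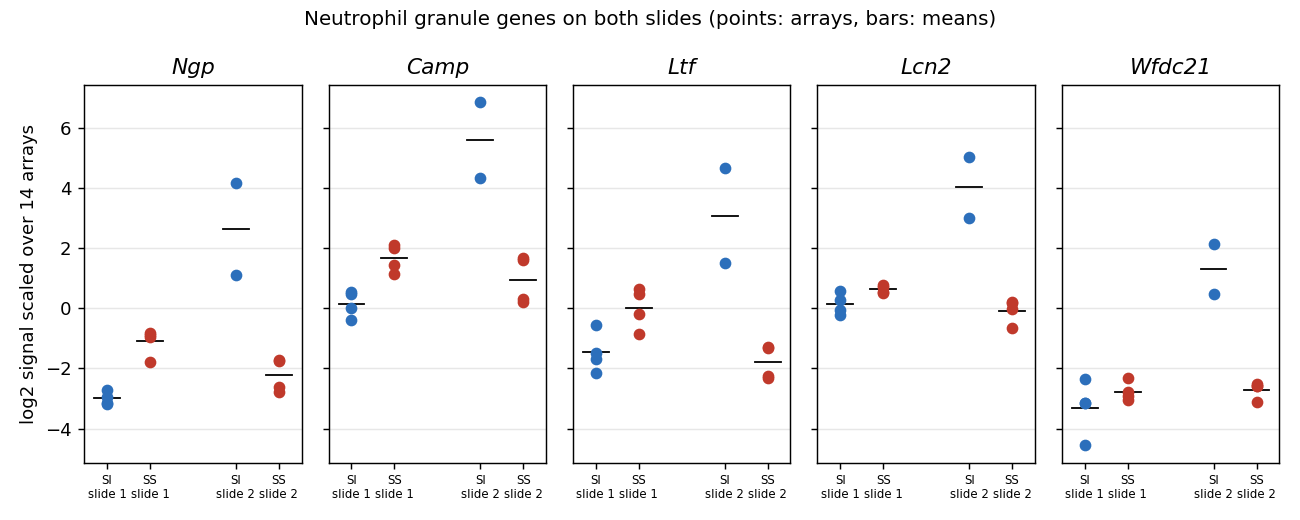
Points are single arrays (blue SI, red SS) and bars group means, on the log2 scale common to the 14 arrays, for 5 neutrophil granule genes on both slides (4 SI and 4 SS on slide 1, 2 SI and 4 SS on slide 2). Ngp, Camp and Ltf average higher in SS than SI mice on slide 1, while on slide 2 both SI mice read above all 4 SS mice for the 5 granule genes.

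Platelet adhesion receptors, integrins, agonist receptors, granule cargo and cytoskeleton genes lay higher in SS mice. Platelets bind von Willebrand factor through the GPIb-IX-V complex and collagen and podoplanin through further receptors, which triggers integrin activation and release of granules. Over all genes, 8.81% lay higher and 1.79% lower in SS mice without overlap, and 11.9% rose without SI mouse 4. Of 12 measured adhesion receptor genes, 7 lay higher in SS mice without overlap and 1 lower, and 9 rose without SI mouse 4. Their median difference was 1.37 above that of all genes with 8 arrays and 1.70 without SI mouse 4. Gp1ba, the von Willebrand factor binding chain, read 3.25, 2.72, 2.42 and 2.51 in SS mice and 2.14, 1.43, -0.09 and 1.77 in SI mice. The groups did not overlap, with SI mouse 6 far under the rest (1.41 ± 0.47; 1.69 ± 0.44 without SI mouse 4, adjusted p = 0.0435). Gp5 of the same complex read 3.92, 3.44, 2.96 and 3.24 against 2.84, 2.10, 0.63 and 2.09 (1.47 ± 0.45). Gp9, the third partner, overlapped through SI mouse 4 alone, at 6.30 between SS mouse 3 at 6.20 and SS mouse 01b at 6.38 (1.23 ± 0.44; 1.54 ± 0.39 without it, a 2.90-fold rise, adjusted p = 0.0427). The podoplanin receptor Clec1b did not overlap, at 5.57 to 6.29 in SS mice against 3.37 to 5.10, and its 3 probes shared the direction. Cd36, a thrombospondin and fatty acid receptor also carried by monocytes and red cell precursors, was the member that lay lower, at -2.86 to -2.27 in SS mice against -0.33 in SI mouse 4 and -2.05 to -1.78 in the others (-1.03 ± 0.40; adjusted p = 0.0679 without SI mouse 4).

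Integrins and the proteins that switch them on followed the receptors. Of 10 measured genes 6 lay higher without overlap, 8 rose without SI mouse 4 and 1 fell, against 8.81%, 11.9% and 9.34% of all genes. Itga2b, the chain of the fibrinogen receptor, read 5.53, 4.99, 4.34 and 5.00 in SS mice and 4.65, 3.45, 1.96 and 3.27 in SI mice, so that SI mouse 4 lay above SS mouse 3 (1.63 ± 0.52; 2.07 ± 0.42 without SI mouse 4, adjusted p = 0.0425). Fermt3, kindlin-3, which opens integrins from inside the cell, read 4.12, 3.63, 3.23 and 3.64 against 3.11, 2.43, 1.35 and 2.31, without overlap (1.36 ± 0.38). Itga2, of the collagen receptor, also did not overlap (1.45 ± 0.37). Apbb1ip, the Rap1 adaptor RIAM that leukocytes also make, was the one that fell (-0.79 ± 0.23, adjusted p = 0.0466).

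Receptors for soluble agonists gave the same count of genes without overlap. Against 8.81% and 11.9% of all genes, 6 of 9 receptors lay higher without overlap and 6 of 9 rose without SI mouse 4. F2r, a thrombin receptor, had the lowest p of them over 8 arrays: -1.01, -1.24, -1.38 and -1.76 in SS mice against -2.47, -2.62, -2.70 and -2.18 in SI mice (1.15 ± 0.26, a 2.22-fold difference). All 4 SI mice, the fourth included, lay close together for F2r, and which blood cells gave its signal was not tested. F2rl2, another receptor of this list, overlapped, with SI mouse 4 at -0.27 above SS mouse 3 at -0.49. It differed by 1.64 ± 0.55 with 8 arrays and by 2.06 ± 0.48 without SI mouse 4 (adjusted p = 0.0425). The ADP receptor P2ry12 read 3.41, 2.92, 2.54 and 2.59 against 1.98, 1.86, 0.24 and 1.92, without overlap (1.36 ± 0.42). Tbxa2r, the thromboxane receptor, did not pass (-1.01 ± 0.44, adjusted p = 0.0981 without SI mouse 4).

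Of 19 measured granule cargo genes 9 lay higher without overlap and 12 rose, against 8.81% and 11.9% of all genes. Pf4, a platelet chemokine, read 7.66, 7.50, 7.07 and 7.28 in SS mice and 6.76, 6.33, 5.07 and 6.55 in SI mice (1.20 ± 0.38 with 8 arrays). Vwf, von Willebrand factor, read 5.62 to 6.31 against 3.32 to 5.42 (1.39 ± 0.43 with 8 arrays). Both were free of overlap, while for Ppbp, another platelet chemokine, SI mouse 4 at 7.37 lay above SS mouse 3 at 7.16. Of 16 cytoskeleton genes 7 lay higher without overlap and 13 rose, among them Tubb1, the tubulin of the platelet ring (1.81 ± 0.42 without SI mouse 4), and Mylk, myosin light chain kinase (1.81 ± 0.47). Of 14 megakaryocyte transcription factor genes 7 lay higher without overlap and 7 rose: Gata1 (1.45 ± 0.41), Gata2 (1.56 ± 0.44) and Gfi1b (1.52 ± 0.42) among them, and Runx1, Fli1 and Tal1 not. In the eicosanoid list, 5 of 11 rose and 2 fell, against 11.9% and 9.34% of all genes. The platelet enzymes Alox12 (1.67 ± 0.44) and Tbxas1 (1.54 ± 0.36) were among those that rose, while the inducible cyclooxygenase Ptgs2 (-1.64 ± 0.40) and the leukocyte lipoxygenase Alox5 fell.

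**Figure D3:**
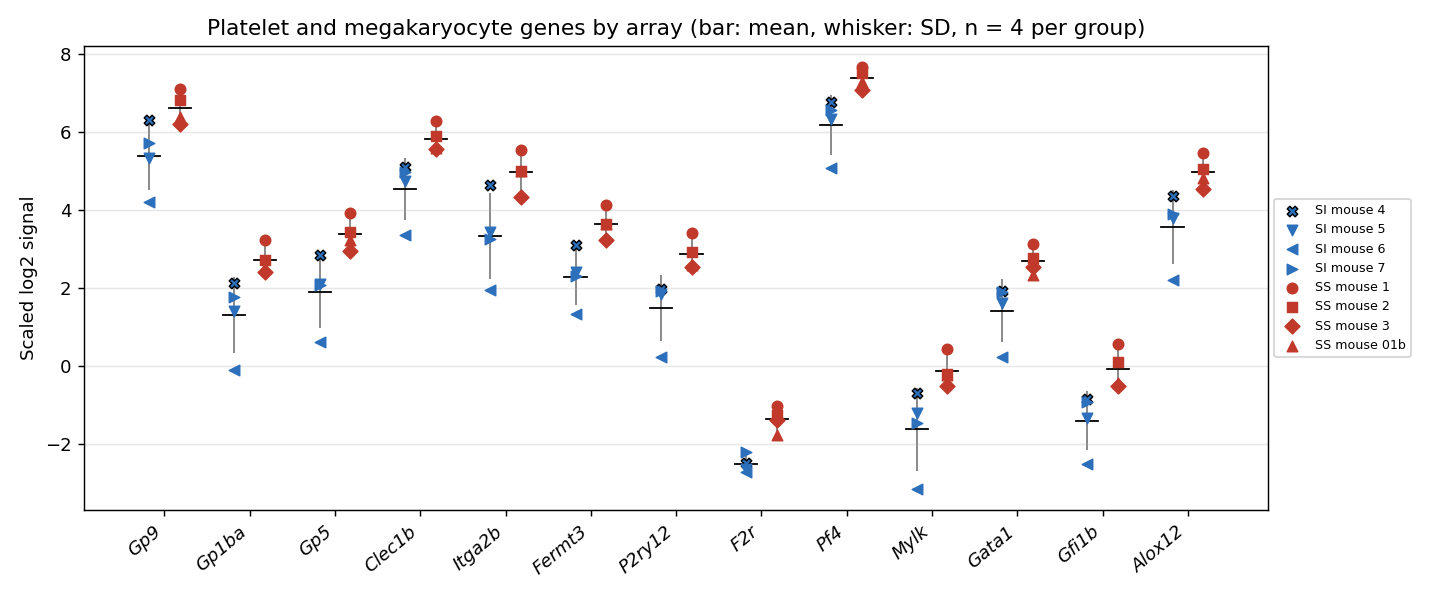
Scaled log2 signal of 13 genes of the platelet, megakaryocyte and eicosanoid lists on each array, SI left and SS right of each gene. Bars are group means and whiskers SD (n = 4), and SI mouse 4 has a black outline. SI mouse 6 is the lowest array for each of the 13 genes and SI mouse 4 the highest SI array for 12 of them, F2r excepted; for Gp9 and Itga2b it reaches into the SS range.

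The level of the platelet adhesion receptors moved with array brightness. Their list level, the median over members of each array's departure from the gene's mean less the array's median over all genes, was 1.26, 0.81, 0.05 and 0.41 in SS mice and 0.41, -0.69, -2.01 and -0.40 in SI mice. The 4 dimmest arrays, those of SI mouse 4 and SS mice 01b, 2 and 1, held the 4 highest levels, and the 4 brightest the 4 lowest; the part of brightness in the platelet differences was not tested beyond the covariate. SS mouse 3 and SI mouse 5, which had near equal brightness (9.39 and 9.43), stood at 0.05 and -0.69. With brightness as a covariate the median of these receptors was 1.10 above that of all genes with 8 arrays and 1.48 without SI mouse 4, and 0 members passed. In the deposited value table it was 0.77 and 1.06. The second slide gave a median of 1.89 in the same direction.

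**Figure D4:**
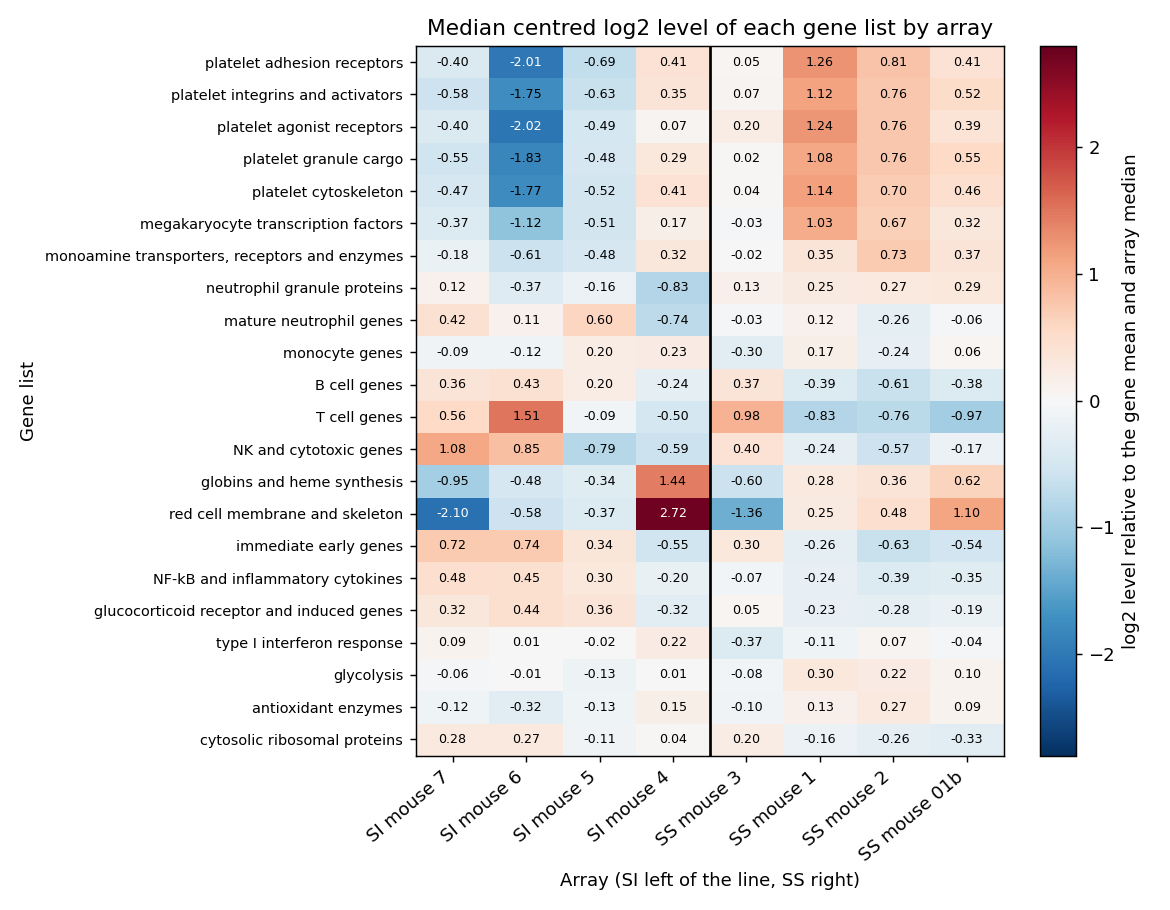
Level of 22 gene lists on each of the 8 arrays (columns; SI left, SS right of the line), as the median over members of the log2 departure from each gene's mean, less the array's median over all genes. The platelet rows are lowest in SI mouse 6 and highest in SS mouse 1, and the red cell row runs from -2.10 in SI mouse 7 to 2.72 in SI mouse 4.

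SI mouse 4 was set apart by high red cell genes and by low values of single genes, the chemokine genes Ccl4 and Ccl3 among them. Single genes were picked because they stood off in this mouse, and they are described here with no test. Its list of NF-kB and inflammatory cytokine genes was not set apart, at -0.20 within the SS range of -0.39 to -0.07. The list of red cell membrane and skeleton genes stood at 2.72 in SI mouse 4, against -0.37, -0.58 and -2.10 in the other SI mice and 0.25, 0.48, -1.36 and 1.10 in SS mice. Globin and heme genes stood at 1.44 in it, against -0.95 to 0.62 elsewhere. Car2, a carbonic anhydrase of red cells, read 2.93 in SI mouse 4 and -2.75 to 0.14 on the other 7 arrays. Trim10, an erythroid ubiquitin ligase family gene, read 2.07 against -4.73 to -0.97. Apol10a read 1.05 against -6.18 to -2.51, and the skeleton anchor Ank1 -0.36 against -6.62 to -3.00. Of the other 7 arrays, Apol10a was well above background on 6 and Ank1 on 4. The hemoglobin share of the summed signal was 5.30% in SI mouse 4 and 2.14% to 4.37% on the others. At the other end, the chemokine genes Ccl4 and Ccl3 read -6.01 and -5.07 in SI mouse 4 against -3.78 to 1.28 and -4.31 to -0.74. The immediate early gene Fos read -2.24 against -1.06 to 2.35, the transporter Slco4a1 -6.61 against -4.07 to -1.85, the zinc finger gene Zfp90 -6.76 against -5.15 to -3.23, and AA467197 -5.48 against -3.52 to -1.55. Ccl4, Ccl3, Slco4a1 and Zfp90 were not well above background on that array. The E1A spike-in transcripts added to each sample averaged 9.64 on that array and 9.92 to 10.2 on the others (log2 before scaling).

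Between the groups, of 19 measured red cell membrane and skeleton genes 1 lay higher in SS mice without overlap, against 8.81% of all genes. Of the 19, 4 rose without SI mouse 4 and 0 fell. Of 15 globin and heme genes 0 rose and 0 fell, and the shares over all genes were 11.9% and 9.34%. Relative to all genes, the medians of these lists were 0.26 and 0.06 with 8 arrays and 0.93 and 0.92 without SI mouse 4, and the first was -0.61 with 8 arrays and -1.31 without SI mouse 4 with brightness as a covariate. Alas2, the first enzyme of heme synthesis in red cells, read 7.56, 7.73, 4.98 and 8.30 in SS mice and 9.59, 7.20, 6.99 and 5.10 in SI mice, with no order by group (-0.08 ± 0.97, adjusted p = 0.967; 0.71 ± 0.81 and 0.473 without SI mouse 4).

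Without SI mouse 4, 12 of 32 measured genes of NF-kB and inflammatory cytokines fell in SS mice. NF-kB is the factor that innate sensors switch on to induce cytokines and chemokines. None of the 32 rose, against 11.9% risen and 9.34% fallen over all genes, and their median was -0.63 relative to all genes. With all 8 arrays 3 lay lower and 1 higher without overlap, against 1.79% and 8.81% of all genes, at a median of -0.42. Ccl4 read -3.59, -1.31, -1.87 and -3.78 in SS mice and -0.74, 0.28 and 1.28 in SI mice 5, 6 and 7, a fall of 7.53-fold (-2.91 ± 0.70, adjusted p = 0.0425), which was -1.34 ± 1.40 (0.577) with SI mouse 4. Il1b, interleukin-1 beta, read 1.82, 1.25, 2.38 and 1.67 against 2.97 to 3.29, with SI mouse 4 at 0.66 under all of them (-1.34 ± 0.29). Tnfaip2, a TNF-induced gene, read 0.48 to 0.82 against 1.67 to 1.84, with SI mouse 4 at 0.06 (-1.14 ± 0.20). For these 3 genes the sole SI array out of order was the dimmest one. For Csf1, the growth factor of macrophages, and Ccrl2, an atypical chemokine receptor, the order of the groups did not depend on that array. Both passed only without it. Csf1 read -1.60, -1.31, -1.90 and -1.07 in SS mice and -0.34, -0.69, -0.04 and -0.03 in all 4 SI mice (-1.20 ± 0.28, adjusted p = 0.219 with 8 arrays), and Ccrl2 read -4.13 to -3.66 against -3.11 to -1.81 (-1.33 ± 0.32).

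Some members of related lists also fell without SI mouse 4, and most did not pass. Over all genes 11.9% rose and 9.34% fell, and 8.81% lay higher and 1.79% lower without overlap. The counts below stand against those shares. Of 20 measured immediate early genes, which respond to stimuli within minutes, 7 fell and 0 rose, Egr1 (-2.28 ± 0.66, adjusted p = 0.0457), Btg2 (-1.49 ± 0.31) and Klf2 (-1.50 ± 0.39) among them. None of the 20 had groups without overlap on 8 arrays, and Fos did not pass (-1.67 ± 0.60, adjusted p = 0.0659). Of 22 genes of the glucocorticoid receptor and its induced genes 6 fell, Per1, Sgk1 and Cebpd among them, and 0 rose. Of 22 Toll-like receptor genes and adaptors 5 fell, Tlr2 and Tlr4 among them. Of 17 mature neutrophil genes 6 fell and 1 rose: Cxcr1, Fpr1, Il1r2, Clec4e, Hdc and Il1b fell and the receptor Csf3r rose. The level of the mature neutrophil list was -0.74 in SI mouse 4 and 0.60, 0.11 and 0.42 in SI mice 5, 6 and 7, against 0.12, -0.26, -0.03 and -0.06 in SS mice, so that SI mouse 4 was the lowest and SS mouse 1 stood level with SI mouse 6. With brightness as a covariate the median of the immediate early genes was -0.11 with 8 arrays and 0.14 without SI mouse 4, a change of sign, and that of the NF-kB list was -0.22 and -0.34. The part of brightness, hemoglobin share and cell makeup in these falls was not tested.

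**Figure D5:**
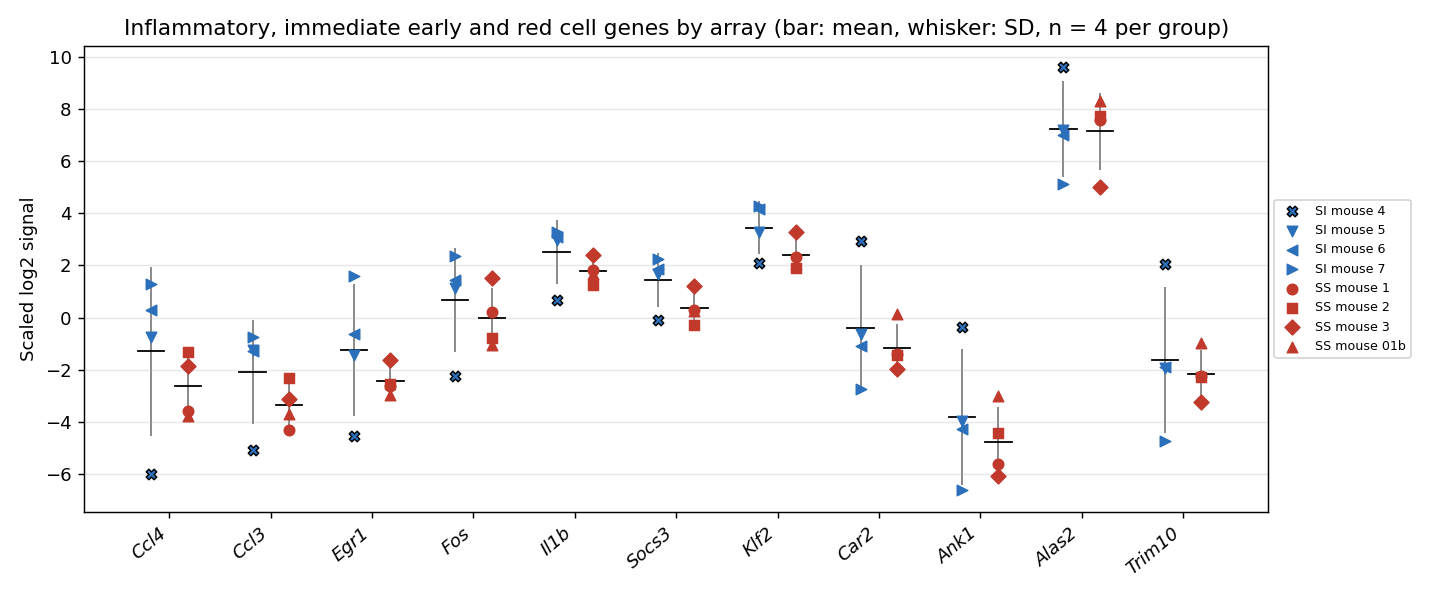
Scaled log2 signal of 7 inflammatory, immediate early and related genes and 4 red cell genes on each array, SI left and SS right of each gene, with group mean (bar) and SD (whisker, n = 4). SI mouse 4 (black outline) is the lowest of 8 arrays for Ccl4, Ccl3, Egr1, Fos and Il1b and the highest for the 4 red cell genes; without it, SI mice 5, 6 and 7 lie above all SS mice for Ccl4, Ccl3, Egr1, Il1b and Socs3.

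Some of the larger differences without SI mouse 4 were found among genes well above background on all 8 arrays. Rhobtb1, a BTB domain protein gene, read 0.86, 2.11, 0.04 and 0.72 in SS mice and -1.97 to -0.71 in SI mice, without overlap (2.11 ± 0.46; 2.26 ± 0.48 without SI mouse 4, a 4.80-fold rise). Pcmtd1, related to protein repair methyltransferases, read 2.51, 3.32, 1.71 and 2.49 against 1.42, 0.76, 0.56 and -0.28, also without overlap (1.89 ± 0.44; 2.16 ± 0.41). Cacnb4, a calcium channel subunit gene, rose by 2.43 ± 0.34, with SI mouse 4 at -3.32 inside the SS range of -3.33 to -1.85 and the other SI mice at -5.25 to -5.06. The 10 largest falls among such genes included the scavenger receptor Marco (-2.37 ± 0.61), the itaconate enzyme Acod1 (-1.94 ± 0.43), the niacin receptor Hcar2 (-1.75 ± 0.35), the chemokine receptor Cxcr1 (-1.69 ± 0.41) and the cytokine inhibitor Socs3 (-1.56 ± 0.35). The other members of the 10 were Arl6ip5, Gramd1a, Jakmip1, Resf1 and Setd4, at -1.74 to -1.54. Socs3 read 0.30, -0.29, 1.19 and 0.25 in SS mice, 1.67, 1.85 and 2.26 in SI mice 5 to 7 and -0.08 in SI mouse 4. The groups overlapped for Marco, Acod1, Hcar2, Cxcr1 and Socs3 once SI mouse 4 was included.

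Some large rises belong to probes that were not well above background on any SI array and have only a bound. Myom2, Slitrk4, Cds1, Olfr523 and Cdkn2b passed the filter on dim probes through the SS arrays alone, and Gprc5c through the SI arrays alone, so the filter fixed their direction and their values are a description. Myom2, a muscle myosin band gene, was well above background on 4 SS arrays and 0 SI arrays, and was at least 2.85-fold higher in SS mice (at least 3.50-fold without SI mouse 4). The bound for Slitrk4, a neuronal membrane protein gene, was at least 2.78-fold on the same arrays. Among the genes with the lowest p on 8 arrays, Cds1, a phospholipid synthesis enzyme, was at least 2.54-fold higher, the olfactory receptor Olfr523 at least 2.55-fold and the cell cycle inhibitor Cdkn2b at least 1.85-fold. Gcsam, a signalling adaptor of germinal centre B cells, read -3.79, -3.39, -3.66 and -3.52 against -4.76, -4.56, -5.24 and -5.11 (1.33 ± 0.25) and was measured on 3 of 4 SI arrays. The scaled level of probes at background ran from -7.85 on the brightest array to -6.49 on the dimmest, and averaged -7.14 ± 0.27 in SS and -7.48 ± 0.66 in SI mice (SD, n = 4; exact permutation p = 0.4, and 0.0571 without SI mouse 4), so that background lay higher in the group with the rises. Its part in them was not tested. Some lower genes with the lowest p were better measured in SI mice, and others were well above background on all 8 arrays. Ncapd3, a condensin subunit, read -4.81, -4.68, -4.31 and -4.78 in SS mice, where 1 of 4 arrays was well above background, and -3.13, -3.54, -2.97 and -3.75 in SI mice (-1.30 ± 0.27). Ogt, the enzyme that adds O-GlcNAc to proteins, was well above background on all 8 arrays. It read -3.87, -3.92, -3.14 and -3.40 against -2.83, -2.34, -2.29 and -2.42 (-1.11 ± 0.27), without overlap and with both probes in 1 direction. Gstp3, a glutathione transferase, was lower by -1.85 ± 0.43 and was well above background on 1 of 4 SS arrays. Gprc5c was at least 1.59-fold lower in SS mice.

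Genes of monoamine handling are of interest because cocaine blocks monoamine transporters, and platelets take up serotonin. Of 11 measured, 3 lay higher in SS mice without overlap and rose without SI mouse 4, and 1 fell. Over all genes 8.81% lay higher without overlap, 11.9% rose and 9.34% fell, so the 1 fall lies near that share. The list median, 1.18 relative to all genes without SI mouse 4, turned to -0.31 with brightness as a covariate. Slc6a4, the serotonin transporter, read 3.49, 2.99, 2.64 and 2.97 in SS mice and 2.40, 1.94, 0.30 and 1.86 in SI mice (1.40 ± 0.44, a 2.64-fold difference; 1.66 ± 0.42 and adjusted p = 0.0427 without SI mouse 4). SI mouse 6 was lowest here too, as for the platelet genes. The vesicle transporter Slc18a2 (1.38 ± 0.38) and the decarboxylase Ddc (1.81 ± 0.36) also rose, and Hdc, the histamine enzyme, fell (-1.12 ± 0.23). The dopamine transporter Slc6a3 overlapped and did not pass (1.30 ± 0.42, adjusted p = 0.0521).

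Metabolic lists had small medians with some members higher. Of 22 glycolysis genes 9 lay higher without overlap and 0 lower, 5 rose and 2 fell, with a median of 0.17 relative to all genes with 8 arrays. With 8 arrays Slc2a3, a glucose transporter of platelets and neurons, differed by 1.23 ± 0.38 and Aldoa, aldolase A, by 0.76 ± 0.26. The transporters Slc2a1 and Slc16a3 fell. Of 29 antioxidant genes 7 lay higher and 2 lower without overlap, and 6 rose. Among these were catalase (Cat, 1.70 ± 0.32) and the glutathione synthesis subunit Gclm (1.82 ± 0.41), both without SI mouse 4. Of 31 interferon response genes 1 rose and 4 fell, Ifit2 being the one that rose (1.24 ± 0.36). With all 8 arrays 3 of the 31 lay lower and 1 higher without overlap. The shares over all genes were 8.81% higher and 1.79% lower without overlap, 11.9% risen and 9.34% fallen. The falls of the interferon and glycolysis lists lie near the last of these.

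Most lymphocyte genes overlapped between the groups. In SS mice 1 of 20 T cell, 0 of 18 B cell and 1 of 13 natural killer genes lay higher without overlap. Over all genes 8.81% did. The T cell list stood at -0.83, -0.76, 0.98 and -0.97 in SS mice and -0.50, -0.09, 1.51 and 0.56 in SI mice, so that SS mouse 3 ranked with SI mice 6 and 7. Of 20 measured genes 1 rose and 1 fell: Lat, an adaptor that platelets share, rose (1.13 ± 0.29) and Cd2 fell. Lef1, a factor of naive T cells, read -6.04, -5.49, -1.54 and -5.47 in SS mice and -5.91, -3.34, -0.98 and -2.63 in SI mice, and Cd3g, of the T cell receptor complex, -2.60, -2.57, -0.55 and -3.03 against -2.71, -1.52, 0.51 and -0.98; Lef1 was well above background on 1 SS and 3 SI arrays, and neither passed (adjusted p = 0.111 and 0.0998 without SI mouse 4). The median of the T cell list, -1.10 without SI mouse 4, turned to 0.67 with brightness as a covariate. Among 18 B cell genes 1 rose and 2 fell, among 19 monocyte genes 2 rose and 1 fell, and among 13 natural killer genes 1 rose, Itga2 of the platelet collagen receptor. Over all genes 11.9% rose and 9.34% fell, so the counts of these lists and of the T cell list lie near or under those shares. With all 8 arrays, 3 of the 19 monocyte genes lay lower in SS mice without overlap and 0 higher. The shares of all genes were 1.79% and 8.81%. Of 77 ribosomal protein genes 0 rose and 0 fell, at a median of -0.26 that turned to 0.24 with brightness as a covariate.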

How the data were processed

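RNA of 14 mouse blood samples was measured on one-colour Agilent arrays, 1 array per mouse; 8 arrays shared the slide described here. The deposited scanner files hold fluorescence intensity per spot, which the authors background-subtracted and spatially detrended in Agilent's Feature Extraction software (version 10.7.3.1 in the headers, 9.1 in the submitters' processing notes) and did not scale between arrays; the other columns used are flags per the file headers. A second, log2-scale set of values deposited by the authors carries no statement of its normalization in the sources used here.

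Of 62976 spots, 3671 control spots were left out, and outlier spots where a probe had another. Log2 signals were scaled per array to the 75th percentile of the 17904 probes well above background on all 8 arrays; 24797 probes measured above background on 4 or more arrays were tested with limma 3.58.1 in R 4.3.3 (figures with matplotlib 3.10.9), SS against SI, with all arrays and without SI mouse 4, at a Benjamini-Hochberg adjusted p under 0.05 over all tested probes. The difference between slides came from a 4-group fit of 14 arrays. Single array measures were compared by exact permutation. Gene symbols came from RefSeq through accessions: 26425 of 31063 probes with such an identifier matched, and a gene was read from its brightest tested probe. The arrays were designed on mm9, so no probe positions are given; promoter sequences are from RefSeq on GRCm38.p6.

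Bounds set the mean of the higher group against, per array, the higher of the probe's own level and the lowest signal well above background. The number of arrays limits the precision. Named genes were those with the lowest p on 8 arrays, the largest changes without SI mouse 4, those farthest off in SI mouse 4, the leading members of the lists, and those that differed between slides; symbols of unnamed gene models were skipped, and some members were added after their values were seen. The members and the 46 lists were chosen with earlier results of these data known. Some genes that this rule names are not reported here. The code was tested on simulated data.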

Additional observations from a re-analysis of the deposited data

Results flagged for a closer look

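Of 164 checks of a gene or array measure within 4 arrays, 17 had 1 array farther from the rest than Dixon's critical value; chance gives about 5 in 100. Part of the genes checked were named because they stood off in SI mouse 4 or changed most without it, so nothing is read from the 11 that fall to that mouse. SI mouse 4 lay high for Cacnb4 (-3.32) and Cd36 (-0.33) and for the scaled level of probes at background (-6.49), and low for Olfr523 (-6.56), Ccl3 (-5.07), Apbb1ip (-0.32), Mmp8 (-2.53), Zfp90 (-6.76), Hdc (-1.46), Il1b (0.66) and Tnfaip2 (0.06). SI mouse 6 lay low for the ADP receptors P2ry12 (0.24) and P2ry1 (-2.05) and for Gata2 (-3.44), all 3 platelet or megakaryocyte genes. Among SS mice, mouse 1 lay low for Ngp (-1.29), and mouse 3 lay low for Apol10a (-4.70) and high for Lef1 (-1.54).

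The SS minus SI difference was not the same on both slides for 5 genes described here, by a test of the difference itself. It was 6.74 larger on the first slide for Ngp, 6.14 for Camp, 6.35 for Ltf, 4.59 for Lcn2 and 4.54 for Wfdc21 (log2).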

How the results depend on the processing

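With 8 arrays, where 0 probes passed, 15477 passed with array weights and 1 with brightness as a covariate, an alternative chosen after seeing the data; leaving out 1 array gave 0 to 5595. At an unadjusted p under 0.05, the other settings with 0 probes gave 3038 to 6620 with all 8 arrays and 2319 to 5492 with 1 array left out. Without SI mouse 4, where 5595 passed, 340 passed in the deposited value table (131 higher), 0 with no filter (30076 at an unadjusted p under 0.05), 0 with the slide row as a block (10728), 0 with the brightness covariate (1894), 16633 with array weights and 9913 in the 14-array fit (59% higher); leaving out a further array gave 0 to 14927. For the difference between slides, 10 probes became 17 with quantile normalization, 24 with cyclic loess, 31 in the deposited table and 2904 with array weights, and 1 to 1065 with 1 array left out, where a lone SI array of the second slide is assumed to vary like the other groups.

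Of 63 described genes that passed without SI mouse 4, 0 reversed, which is a description since they were picked for passing. All 63 were lost with no filter, the row block, the brightness covariate or any 1 of 5 arrays left out, and 52 of 60 in the deposited table. Mmp8, 0.23 with 8 arrays, was -0.20 with array weights, and -0.27 (without SI mouse 4) to 0.41 (without SI mouse 7) with 1 array left out. With 1 array left out the brightness difference ran from -0.78 to -0.16, the share of probes well above background from -0.66 to 2.32 percentage points, the hemoglobin share from -0.27 to 0.79 (-0.08 without SI mouse 6, -0.18 without SS mouse 01b), the spike-in level from 0.00 to 0.17 and the background level from 0.21 to 0.67. The causes were not tested. No paired analysis was possible because the groups share no replicate numbers in the labels.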

Other observations

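Several lists not described above also held genes that passed without SI mouse 4. Of 16 chemokine receptor genes 4 fell and 1 rose: Ccr9, a gut homing receptor, was the one that rose (1.39 ± 0.26, SE). Of 16 measured cytosolic tRNA synthetase genes 4 fell and 0 rose, among them Lars (-1.06 ± 0.25). Of 22 genes of the integrated stress response, the program that slows translation under amino acid or protein stress, 4 fell and 0 rose, Trib3 (-1.31 ± 0.34) and Asns (-0.76 ± 0.20) among them. Of 13 clock genes 2 fell, Per1 (-1.44 ± 0.37) and Bhlhe40 (-1.18 ± 0.25). These counts stand against 11.9% of all genes that rose and 9.34% that fell. With brightness as a covariate the median of the chemokine receptors was -0.09 and that of the clock genes 0.05 relative to all genes without SI mouse 4, against -0.72 and -0.59.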
